A study of Mus musculus with 2 samples.

Results

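Droplets rich in RNA of hepatic stellate cells and of matrix genes were examined in 2 single-cell libraries made from mouse liver. A droplet was chosen by its own measured counts. It needed at least 4 UMIs (unique molecular identifiers, each standing for 1 captured transcript), and at least 0.1% of its UMIs, from 7 genes, which were Dcn, Col3a1, Col1a1, Lrat, Reln, Ecm1 and Colec11. It could hold at most 2 UMIs of the endothelial genes Ptprb, Kdr and Gpr182. It also needed at least 200 detected genes and at most 20% mitochondrial UMIs, and its barcode sequence could not stand in the other library with more than 5 times its UMIs. These filters without the gene rules left 9571 kept cells of 18633 barcodes, and 308 of them (3.22%) met the gene rules. They are called stellate-gene droplets below, because many of them also held abundant macrophage RNA.

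The study sampled 1 mouse of genotype Spta sph/sph and 1 littermate of genotype Spta wt/wt, both untreated males aged 8 to 10 weeks. Mice homozygous for sph lack functional alpha-spectrin in red cells and have hemolytic anemia, and the study asked how liver macrophages that take up red cells are programmed. The liver was perfused with collagenase, and non-parenchymal cells were captured on magnetic beads carrying an antibody to F4/80, a macrophage surface protein, so stellate cells were not the target of the isolation. Each mouse gave 1 library, and the libraries are known here as library 2 and library 1 from the number that ends each barcode. The labels do not say which number belongs to which animal, and neither library is given a genotype here. With 1 library per group and cells that are not replicates, no test was run, and each interval below covers counting error within a library only.

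Hepatic stellate cells lie between the endothelium and the hepatocytes of the liver sinusoid. They store vitamin A as retinyl ester, which the enzyme LRAT makes, and after injury they become the main source of collagen in the liver. They also supply signals to their neighbours, among them hepatocyte growth factor and bone morphogenetic proteins (BMPs), and they sit beside the Kupffer cells, the resident macrophages of the sinusoid. Portal fibroblasts are a separate matrix-producing population around the portal tract.

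Library 2 gave 236 stellate-gene droplets of 6898 kept cells (3.42%, exact binomial interval 3.005 to 3.88%), and library 1 gave 72 of 2673 (2.69%, 2.11 to 3.38%). The intervals overlap. The droplets held 980237 UMIs in library 2 and 322415 UMIs in library 1. UMIs per droplet ranged from 689 to 24885 (median 2159.5) in library 2 and from 562 to 14354 (median 2836.5) in library 1, and the median droplet had 14.0% and 14.7% mitochondrial UMIs in library 2 and library 1. Barcode sequences present in both libraries numbered 955, and 11 stellate-gene droplets of library 2 and 0 of library 1 carried one. Without these 11 droplets the share in library 2 was 3.26%. No doublets were removed, so a droplet may hold more than 1 cell.

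The counts of rule UMIs showed no gap at the threshold. The 7 rule genes summed to a median of 10 UMIs per droplet in library 2 and 15 UMIs in library 1, with highest values of 300 and 238 UMIs. At the edge, 33 droplets of library 2 and 7 droplets of library 1 had exactly 4 rule UMIs, and 212 and 78 kept cells outside the set had 3. Those at 4 were shallow, with a median of 1047 UMIs in library 2 and 1703 UMIs in library 1, while those at 3 had medians of 9071 and 7743.5 UMIs. A further 234 kept cells of library 2 and 54 of library 1 reached 4 UMIs but stayed under 0.1%.

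Dcn, the proteoglycan decorin (chr10:97479609-97518143, GRCm38, plus strand), carried most of the choice. Its level was 3674 CPM in library 2 (UMIs of the gene per 1000000 UMIs of the droplets together, Poisson interval 3555 to 3796) and 4448 CPM in library 1 (4220 to 4684). It was seen in 92.8% of the droplets of library 2 and 97.2% of those of library 1. Ecm1, a secreted matrix protein, followed with 1348 and 1737 CPM in library 2 and library 1. Colec11, a soluble collectin, had 567 and 586 CPM, and Lrat (chr3:82892579-82903973, minus strand) had 283 and 264 CPM. Reln (chr5:21884454-22344702, minus strand), which encodes the secreted glycoprotein reelin, had 330 CPM in library 2 and 716 CPM in library 1. Col3a1, a fibrillar collagen chain, had 190 and 152 CPM, and Col1a1 gave only 27 and 2 UMIs. Any of Lrat, Reln and Colec11, which are stellate cell genes, was found in 196 of 236 droplets (83.1%) in library 2 and in 66 of 72 (91.7%) in library 1. These levels describe the choice and were not used as support for it.

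Genes of stellate cells outside the rule were abundant in the same droplets. The list of stellate identity genes held 24 measured genes, which together made up 6265 CPM in library 2 and 7484 CPM in library 1. In Kupffer-rule cells, which had at least 4 UMIs and 0.1% of UMIs from Clec4f, Cd5l and Vsig4 with at most 2 rule UMIs, the same list made up 154 and 224 CPM. In endothelial-rule cells, chosen in the same way by Ptprb, Kdr and Gpr182, it made up 587 and 846 CPM. All 22 list genes with enough counts for a ratio were at least 2-fold above Kupffer-rule cells in both libraries, against 6.14% of the 2981 genes measured, and 0 genes were at least 2-fold below. A rule that selects cells on co-expressed genes favours such a count, so it is a description and no test.

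Rgs5 (chr1:169655501-169695813, plus strand), a regulator of G-protein signalling of pericytes and stellate cells, was the highest of the list in library 2. It had 1131 CPM in the stellate-gene droplets of library 2 against 45.5 CPM in its Kupffer-rule cells, and 459 CPM in those of library 1 against 32.6 CPM. Tmem56, a membrane protein gene, was the highest in library 1 with 1048 CPM, and had 649 CPM in library 2. Sod3, extracellular superoxide dismutase, had 1012 and 515 CPM in library 2 and library 1, or 96.5 and 138 times its Kupffer-rule level. Steap4, a metalloreductase, had 422 and 620 CPM. Colec10, the collectin that pairs with the product of Colec11, had 317 and 251 CPM. Desmin (Des), a filament protein classically used to stain stellate cells, gave few UMIs at 28.6 and 55.8 CPM. To compare cells at 1 depth, each was thinned to 1000 UMIs, which left out 46 droplets of library 2 and 8 of library 1. Of the rest, 63.7% of 190 droplets in library 2 and 68.8% of 64 in library 1 kept 2 or more UMIs of the list, against 2.73% and 4.69% of Kupffer-rule cells. Unthinned, 220 of 236 and 70 of 72 droplets had 2 or more.

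**Figure D1:**
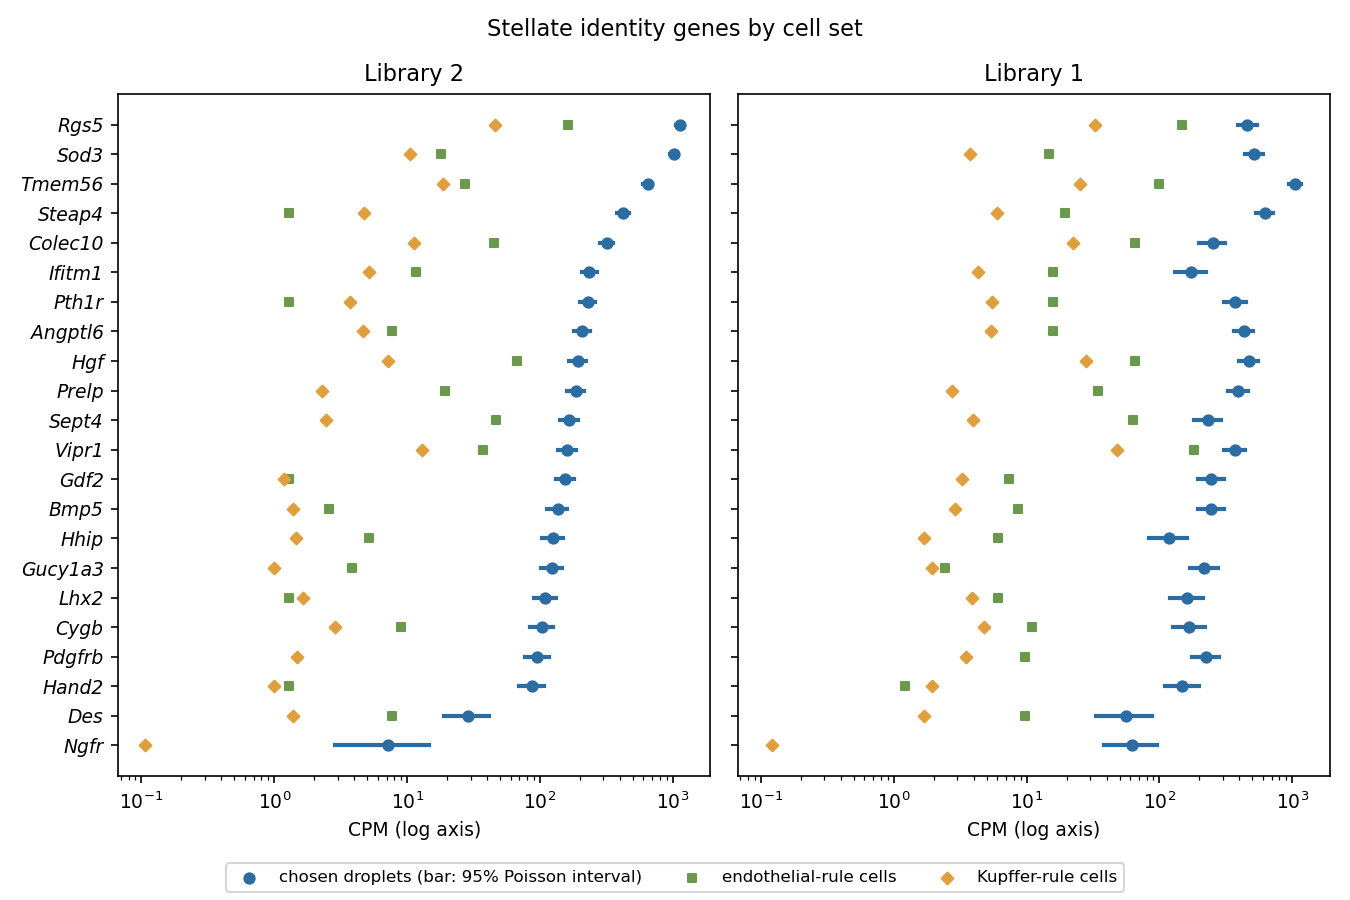
Levels (CPM, log axis) of 22 stellate identity genes in the stellate-gene droplets (blue, bar is the exact Poisson 95% interval), in endothelial-rule cells (green squares; a level of 0 is not drawn) and in Kupffer-rule cells (orange diamonds), library 2 on the left and library 1 on the right. Every blue point lies to the right of both other cell sets, from Ngfr at 7.14 CPM to Rgs5 at 1131 CPM in library 2 and from Des at 55.8 CPM to Tmem56 at 1048 CPM in library 1.

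The label of fibroblasts rested on few of its markers. The portal fibroblast list summed to 318 CPM in library 2 and 288 CPM in library 1, against 42.1 and 46.6 CPM in Kupffer-rule cells. Of 19 portal fibroblast genes, 4 were at 0 in library 2 and 10 in library 1, among them Col15a1, Fbln2, Gli1 and Mgp in both. Dpt and Clec3b each gave 3 UMIs in library 2, all from 1 droplet, and 0 in library 1. Mfap4 and Fbln1 gave 1 UMI each in library 2 and 0 in library 1, and Thy1 gave 2 and 0. Lum, a small proteoglycan, was the only list gene above 50 CPM, at 200 CPM in library 2 and 149 CPM in library 1, and gelsolin (Gsn) stood at 38.8 and 31.0 CPM, close to its 32.4 and 32.9 CPM in Kupffer-rule cells. By UMIs, 174 of 236 droplets (73.7%) in library 2 and 48 of 72 (66.7%) in library 1 had at least 2 UMIs of the stellate list and not of the fibroblast list. Both lists reached 2 UMIs in 46 and 22 droplets, the fibroblast list alone in 1 and 0, and neither in 15 and 2. Without Gsn and Lum, the fibroblast list reached 2 UMIs in 13 of 236 droplets (5.51%) in library 2 and 7 of 72 (9.72%) in library 1. Pdgfra, also on that list, is given with the receptors below. Smooth muscle and mesothelial markers were also scarce. Acta2 gave 13 and 0 UMIs, Tagln 17 and 7, Wt1 1 and 0, and Msln and Krt19 none in either library. Rgs4 was the exception in that list with 185 CPM in library 2 and 58.9 CPM in library 1.

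Kupffer cell RNA was present in most stellate-gene droplets, and the share was higher in library 2. More than 2 UMIs of Clec4f, Cd5l and Vsig4 were found in 231 of 236 droplets (97.9%, 95.1 to 99.3%) of library 2 and in 47 of 72 (65.3%, 53.1 to 76.1%) of library 1. Thinned to 1000 UMIs, the shares were 80.0% (73.6 to 85.4%) and 64.1% (51.1 to 75.7%), and the intervals overlap. Endothelial-rule cells, unthinned, showed the same order, with 123 of 130 (94.6%) and 86 of 248 (34.7%). The 12 genes of the Kupffer list summed to 29791 CPM in the stellate-gene droplets of library 2, or 86.1% of the level in its Kupffer-rule cells, and to 19661 CPM in those of library 1, or 69.9%. Marco made up 9998 CPM of the sum in library 2 and 233 CPM in library 1. Per droplet, Clec4f, Cd5l and Vsig4 made up 0.651% of UMIs in the median droplet of library 2, against 0.317% for library 1. That was above the endothelial-rule cells (0.202% and 0.0664%) and below the Kupffer-rule cells (1.04% and 1.30%). Whether a droplet held a second cell, an attached fragment or free RNA cannot be told apart here.

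Kupffer and rule-gene shares also varied with depth, though not in 1 direction. In droplets with 4000 or more UMIs, of which there were 85 in library 2 and 32 in library 1, the Kupffer genes took a median of 1.12% and 1.03% of UMIs and the rule genes 0.187% and 0.163%. In droplets under 1500 UMIs, 95 in library 2 and 19 in library 1, the Kupffer genes took 0.585% and 0.164% and the rule genes 0.768% and 1.25%. The choice itself favours a high rule-gene share there, since the minimum of 4 UMIs is more than 0.1% of so shallow a droplet. The Kupffer-rule cells of 4000 or more UMIs had medians of 1.24% and 1.33%. In the 56 droplets of library 2 and 21 of library 1 between these depths, the Kupffer genes took 0.381% and 0.157% and the rule genes 0.362% and 2.04%. The deep droplets were mixed, since 17 of 85 in library 2 and 8 of 32 in library 1 had at most 0.2% Kupffer marker UMIs. At any depth, 32 droplets of library 2 and 29 of library 1 did. RNA of other cell types was also present. The 6 erythroid genes, which encode globin and other red cell proteins, summed to 64680 CPM in library 2 and 43.4 CPM in library 1, against 100510 and 324 CPM in Kupffer-rule cells. The 12 lymphocyte and dendritic cell genes summed to 822 and 7695 CPM, against 1172 and 8728 CPM, mostly from Cd74, which had 601 and 5136 CPM. The 12 endothelial genes, which do not include Ptprb, Kdr and Gpr182, summed to 647 and 996 CPM, against 511 and 968 CPM. The 12 hepatocyte genes summed to 2266 CPM in library 2 and 2273 CPM in library 1, against 1830 and 2167 CPM in Kupffer-rule cells, and the 8 cholangiocyte genes to 10 and 5 UMIs.

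**Figure D2:**
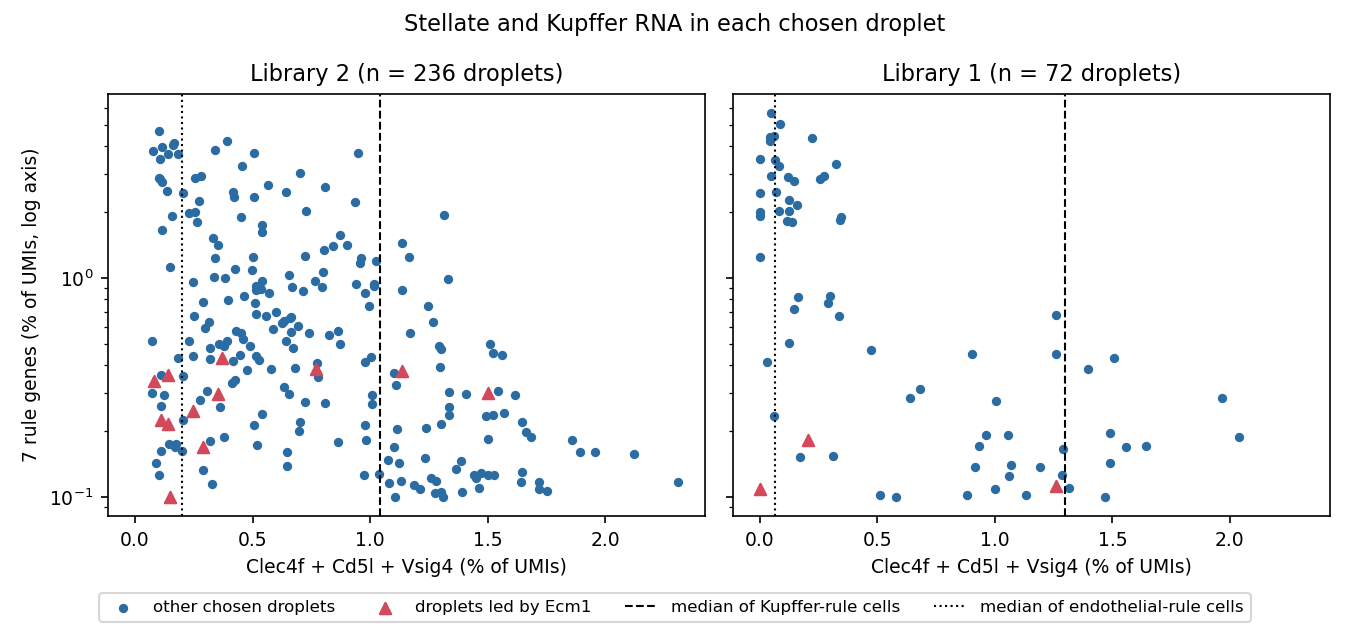
Each point is 1 stellate-gene droplet, with the share of its UMIs from Clec4f, Cd5l and Vsig4 on the x axis and from the 7 rule genes on the y axis (log axis), library 2 on the left and library 1 on the right; red triangles are droplets led by Ecm1, and lines mark the medians of Kupffer-rule (dashed) and endothelial-rule cells (dotted). Library 1 shows a group at the upper left with little Kupffer RNA and a group of similar size (27 of 72 droplets above 0.8%) towards the Kupffer-rule median, while the droplets of library 2 fill the range between them.

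Matrix genes were enriched over Kupffer-rule cells in the same droplets, and much less over endothelial-rule cells. Of the 21 fibrillar and basement membrane genes, 12 had enough counts for a ratio to Kupffer-rule cells. All 12 were at least 2-fold above them in both libraries, against 6.14% of the 2981 genes measured. The droplets were chosen on matrix genes and Kupffer-rule cells held few rule UMIs, so this count is a description and no test. The list summed to 4288 CPM in the droplets of library 2 and 5276 CPM in those of library 1. It summed to 138 and 165 CPM in Kupffer-rule cells, but to 3113 and 3742 CPM in endothelial-rule cells. Sparc, a collagen-binding glycoprotein, had 868 CPM in library 2 and 850 CPM in library 1, and the proteoglycan biglycan (Bgn) had 724 and 1027 CPM. Col14a1, a collagen that associates with fibrils, had 491 and 611 CPM and led the collagens. Col4a1, of the basement membrane, had 209 and 298 CPM, and here the endothelial-rule cells were higher with 395 and 463 CPM. Col1a2 had 151 and 140 CPM, and the type VI chains Col6a1, Col6a2 and Col6a3 stood between 25.5 and 52.0 CPM in library 2 and between 27.9 and 37.2 CPM in library 1.

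Genes of stellate activation were mixed. Tgfbi, a secreted adhesion protein induced by TGF-beta, had 628 CPM in library 2 and 738 CPM in library 1. Postn, the matricellular protein periostin, had 320 and 109 CPM, or 120 and 25.8 times the Kupffer-rule level. Timp1, a protease inhibitor that marks activated stellate cells, gave 6 UMIs in library 2 and 1 in library 1, and Spp1 gave 1 and 0. Acta2, the smooth muscle actin of myofibroblasts, was as scarce as stated above.

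Several retinoid and lipid droplet genes stood close to their level in Kupffer-rule cells. Plin2, a lipid droplet coat protein, had 275 CPM in library 2 and 220 CPM in library 1, against 252 and 178 CPM in Kupffer-rule cells. Dhrs3, a retinal reductase, had 96.9 and 136 CPM against 69.5 and 102 CPM. Stra6, a retinol transporter, gave no UMI.

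Ligands that act on neighbouring cells were prominent. Cxcl12, a chemokine, had 544 CPM in library 2 and 921 CPM in library 1, against 8.78 and 13.7 CPM in Kupffer-rule cells. Hgf (chr5:16553495-16620152, plus strand), hepatocyte growth factor, had 193 and 471 CPM. Angptl6, an angiopoietin-like secreted protein, had 207 and 431 CPM. Netrin 1 (Ntn1) had 97.9 and 192 CPM. Rspo3, an R-spondin that amplifies Wnt signalling, had 79.6 and 127 CPM. Il34, a ligand of the macrophage receptor CSF1R, had 33.7 and 27.9 CPM, while Csf1, its other ligand, had 21.4 and 37.2 CPM and was higher in endothelial-rule cells (56.8 and 101 CPM). Igf1 and Vcam1 are often ascribed to stellate cells, yet neither exceeded Kupffer-rule cells. Igf1 had 422 and 512 CPM in the stellate-gene droplets against 523 and 729 CPM, and Vcam1 had 1540 and 354 CPM against 1737 and 453 CPM.

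BMP family ligands were a further group enriched in the droplets. Gdf2, which encodes BMP9, had 155 CPM in library 2 and 245 CPM in library 1, or 132 and 75.5 times its level in Kupffer-rule cells. Bmp10, the close relative that shares its endothelial receptor, had 86.7 and 127 CPM, or 174 and 212 times. Bmp5 had 136 and 245 CPM, Bmp4 27.5 and 77.5 CPM, and Gdf10 40.8 and 93.0 CPM. Endothelial-rule cells held at most 9.77 CPM of any of these 5 genes in either library. Bmp6, the iron-sensing ligand of liver endothelium, gave 1 and 0 UMIs in the stellate-gene droplets. Bmp2 had 42.8 and 118 CPM there, against 773 and 1732 CPM in endothelial-rule cells. The intervals of the library ratio were below 0 for Gdf2 (log2 -0.66, -1.06 to -0.25) and included 0 for Bmp10 (-0.55, -1.11 to 0.02).

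The ligand genes Bmp10 and Gdf2 were enriched over Kupffer-rule cells in each library, and Ecm1 is a rule gene. Their promoters are shown as examples. Each is the 250 bases before the RefSeq start, 5′ to 3′ on the strand of the gene, in build GRCm38.p6. Capitals mark matches on either strand to TATAAA (the TATA box), CATCTG (an E-box form), AGATAA (read by GATA factors) or TAATTA (a homeodomain core).
Bmp10 (chr6:87428744-87428993, plus strand): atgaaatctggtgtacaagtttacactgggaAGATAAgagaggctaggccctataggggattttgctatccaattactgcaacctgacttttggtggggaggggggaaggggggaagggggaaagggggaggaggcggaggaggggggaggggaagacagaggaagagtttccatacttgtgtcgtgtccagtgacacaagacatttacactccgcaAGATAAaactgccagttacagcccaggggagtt
Gdf2 (chr14:33940789-33941038, plus strand): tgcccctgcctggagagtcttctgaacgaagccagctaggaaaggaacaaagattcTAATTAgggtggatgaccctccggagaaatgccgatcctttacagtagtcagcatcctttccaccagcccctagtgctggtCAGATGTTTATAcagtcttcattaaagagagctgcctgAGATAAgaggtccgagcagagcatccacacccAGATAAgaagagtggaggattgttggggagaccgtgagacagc
Ecm1 (chr3:95739570-95739819, minus strand): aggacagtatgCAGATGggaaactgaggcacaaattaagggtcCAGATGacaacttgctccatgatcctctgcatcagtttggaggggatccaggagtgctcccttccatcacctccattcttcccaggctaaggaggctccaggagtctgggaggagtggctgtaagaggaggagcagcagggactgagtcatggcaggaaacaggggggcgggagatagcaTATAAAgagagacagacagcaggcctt

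AGATAA occurred 2 times in the Bmp10 window, at 219 and 33 bases before the start, and 2 times in the Gdf2 window, at 75 and 43 bases. Of 32851 RefSeq windows of the same length, 9.99% held it on either strand. The Ecm1 window held TATAAA at 27 bases before the start, a motif found in 12.4% of windows, and CATCTG on the reverse strand at 239 and 207 bases, a motif in 14.4% of windows. TAATTA was in 4.84% of windows, Gdf2 among them. Gata6 transcripts had 27.5 CPM in library 2 and 24.8 CPM in library 1, and Gata4 gave 9 UMIs in each. Of the Gata6 UMIs, 29.6% in library 2 and 12.5% in library 1 came from the droplets led by Ecm1, and the level in the other droplets was 20.9 and 23.3 CPM. Windows of other rule genes and stellate genes were also read and are not shown. No match to any of these motifs was found in the windows of Lrat, Reln, Hgf and Lhx2. Those of Col3a1, Colec11, Rgs5 and Hand2 held 2, 1, 1 and 3 matches. All these matches describe letters in the windows and were not linked to any measured binding.

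Several receptors known from stellate cells were enriched in the droplets over Kupffer-rule cells. Lifr, the leukemia inhibitory factor receptor, had 389 CPM in library 2 and 199 CPM in library 1. Pth1r, the parathyroid hormone receptor, had 230 and 372 CPM. Vipr1, a receptor of vasoactive intestinal peptide, had 160 and 369 CPM. Ednrb and Agtr1a, receptors for endothelin and angiotensin, had 155 and 347 CPM and 107 and 202 CPM. For Ednrb, 47.4% of the UMIs in library 2 and 17.9% in library 1 came from the 12 and 3 droplets led by Ecm1 that are described further on. Pdgfrb, the PDGF receptor of pericytes, had 94.9 and 223 CPM, and Pdgfra 31.6 and 46.5 CPM. Of 12 receptor genes with enough counts, 8 were at least 2-fold above Kupffer-rule cells in both libraries, against 6.14% of the 2981 genes measured. Mertk, the integrin gene Itgb1 and the TGF-beta receptors Tgfbr1 and Tgfbr2 were not. Mertk had 360 and 437 CPM, against 407 and 574 CPM in Kupffer-rule cells. The whole receptor list summed to 2424 CPM in the droplets of library 2 and 3452 CPM in those of library 1. It summed to 896 and 1314 CPM in Kupffer-rule cells and to 1839 and 2565 CPM in endothelial-rule cells, so much of this signal was shared with the latter.

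Transcription factors of liver mesenchyme were detected at low levels. Lhx2, which holds stellate cells quiescent in mice, had 109 CPM in library 2 and 161 CPM in library 1. Hand2 had 86.7 and 149 CPM. Nr2f2 had 150 and 248 CPM and was higher in endothelial-rule cells (316 and 763 CPM). Foxf1 had 34.7 and 43.4 CPM and Tbx20 45.9 and 43.4 CPM, both at most 0.355 CPM in Kupffer-rule cells. Tcf21 had 12.2 CPM in library 2 and 80.6 CPM in library 1.

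Genes with the highest level over all other kept cells, ranked by the lower of the 2 library ratios, included several outside the lists. Pamr1, a secreted protease-like protein, had 51.0 and 34.1 CPM in library 2 and library 1 against 0.491 and 0.456 CPM in other kept cells. Nrxn3, a neurexin, had 33.7 and 34.1 CPM against 0.201 and 0.456 CPM. Tnfrsf11b, which encodes osteoprotegerin, had 185 and 180 CPM against 2.97 and 3.95 CPM. Angptl2 had 95.9 and 192 CPM, and Epha7, an ephrin receptor, had 72.4 and 99.3 CPM. Retnla, Prg4 and Alox15 also ranked among the first 8, and these came from few droplets.

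Prg4, Alox15 and Retnla lay mostly in droplets whose rule UMIs came from Ecm1. There were 12 such droplets in library 2 and 3 in library 1, defined after the values were seen as having at most 1 rule UMI outside Ecm1. In library 2 they held 355 of 356 Prg4 UMIs (99.7%), 154 of 155 Alox15 UMIs and all 210 Retnla UMIs, 148 of them in 1 droplet. In library 1 they held 88 of 121 Prg4 UMIs (72.7%) and all 104 Retnla UMIs, but only 44 of 79 Alox15 UMIs, and 1 further droplet held the other 33 Prg4 and 35 Alox15 UMIs. They also held 545 of 548 Slpi UMIs and 488 of 490 Saa3 UMIs in library 2, 87.2% of its Pf4 UMIs and 63.1% of its Fn1 UMIs. Their Fn1 level was 9544 CPM in library 2 and 10066 CPM in library 1, against 438 and 789 CPM in the other stellate-gene droplets. Dcn gave 1 UMI in each library in these droplets, Rgs5 gave 3 and 0, and Hgf 1 and 3. Not all were alike, since Prg4 was found in 8 of 12 and 2 of 3. In mice Prg4, Alox15, Retnla, Saa3 and Slpi are known from macrophages of the peritoneal cavity. The integrin gene Itgam, looked up after these values were seen, gave 884 CPM in library 2 and 1174 CPM in library 1 in these droplets, against 7.70 and 73.3 CPM in the others, and Clec4f gave 197 and 677 CPM against 1870 and 2594 CPM. Thus Fn1, Pf4 and Thbs1 values over all 308 droplets rest largely on these few. Thbs1 had 115 of 119 UMIs there in library 2 and 91 of 111 in library 1.

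**Figure D3:**
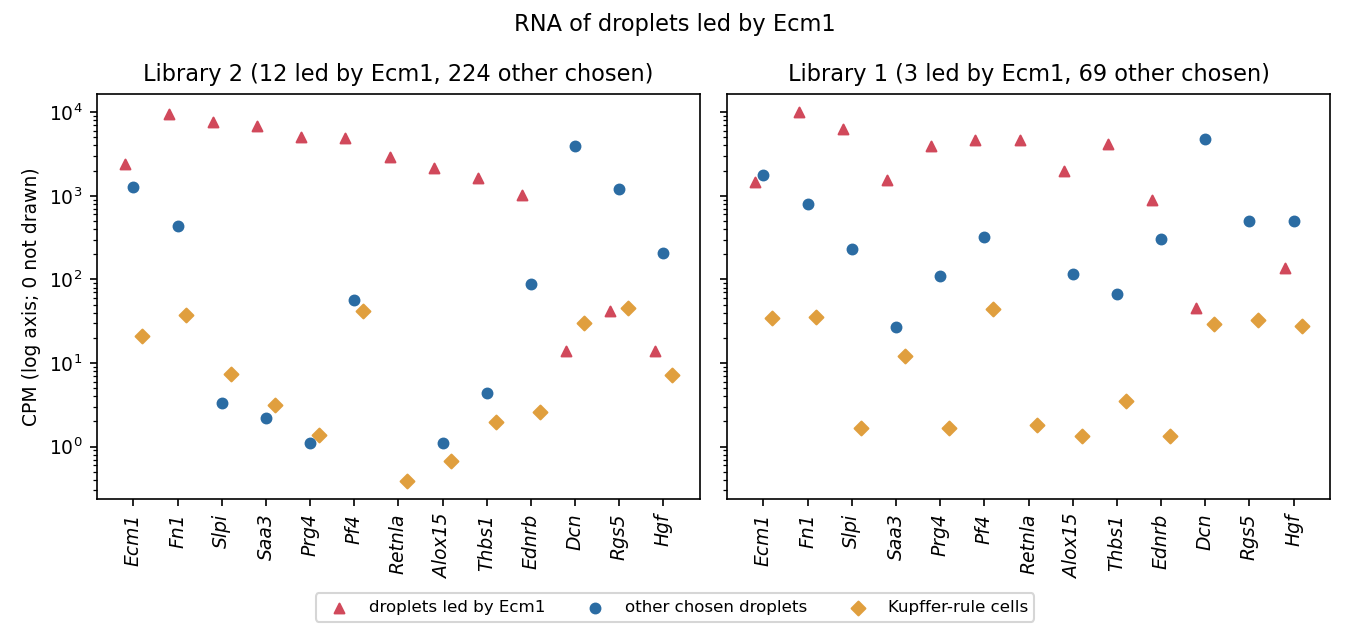
Levels (CPM, log axis, 0 not drawn) of 13 genes in droplets with at most 1 rule UMI outside Ecm1 (red triangles), in the other stellate-gene droplets (blue circles) and in Kupffer-rule cells (orange diamonds), library 2 on the left and library 1 on the right. Fn1 to Thbs1 are highest in the Ecm1-led droplets, and Dcn, Rgs5 and Hgf in the other stellate-gene droplets.

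Between the libraries, 3852 genes had at least 50 CPM and 10 UMIs in either library within the stellate-gene droplets. Of these, 152 (3.95%) were at least 2-fold higher in library 2 and 424 (11.0%) at least 2-fold lower, and the median log2 ratio was -0.28. Ratios were also taken per UMI of the stellate identity list, which sets the summed list UMIs of each library as the unit. There 266 genes (6.91%) were at least 2-fold higher and 214 (5.56%) lower, and the median was -0.02. That scaling was added after the data had been seen. Its unit includes list genes judged in it below, among them Rgs5, Sod3, Hgf, Ngfr, Vipr1 and Pdgfrb. Rgs5 and Sod3 took up a larger part of the unit in library 2. Sod3 gave 1012 of 6265 CPM in library 2 and 515 of 7484 CPM in library 1. Compared with a unit without Rgs5 and Sod3, this lowers the stellate-scaled ratio of every gene. The size of that shift was not computed, so stellate-scaled values near or below 0, such as those of Dcn and Hgf, depend on this choice of unit. A "stellate-scaled" ratio below is the log2 ratio, library 2 over library 1, in this unit, and the plain log2 ratio is that of CPM.

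Most of the 12 highest and 12 lowest genes by CPM ratio, ranked by the interval bound nearest 0, were genes of red cells and immune cells. All 6 erythroid genes exceeded 2-fold in favour of library 2, and Hbb-bs had 28427 CPM in library 2 and 15.5 CPM in library 1. Its log2 ratio of 10.84 was 6.08 when barcodes shared with a deeper one in the other library were kept, and 7.40 with up to 40% mitochondrial UMIs. Marco, a scavenger receptor of macrophages, had 9998 and 233 CPM, with a log2 ratio of 5.43 in the stellate-gene droplets and 4.52 in Kupffer-rule cells. Heme oxygenase (Hmox1) had 6111 and 611 CPM (3.32, and 2.83 in Kupffer-rule cells), and ferritin heavy chain (Fth1) had 14602 and 2450 CPM (2.58 and 2.44). In the other direction, the MHC class II gene H2-Aa had 170 CPM in library 2 and 2534 CPM in library 1 (-3.89, and -3.50 in Kupffer-rule cells). The hepatocyte genes Etnppl and G6pc gave 2 and 27 UMIs and 4 and 23 UMIs (-5.36 and -4.13). Disp2, which was over Kupffer-rule cells in both libraries (log2 7.65 and 7.32), gave 7 and 31 UMIs (-3.75). Of the iron and heme list, 7 of 12 genes were at least 2-fold higher and 0 lower, against 3.95% and 11.0% of all genes. Hmox1, Fth1 and Ftl1 were each below their Kupffer-rule level in both libraries. The part of Kupffer RNA in these values was not tested.

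Stellate identity genes were mostly lower in library 2 by CPM. Of 24 genes measured, only Rgs5 was higher by 2-fold or more, 7 were lower by that much and 16 stayed within 2-fold. All genes gave 3.95% higher and 11.0% lower. The median log2 ratio of the list was -0.70 against -0.28 for all genes. Stellate-scaled, 2 list genes were higher and 3 lower, against 6.91% and 5.56% of all genes, and the list median was -0.44. The summed list took up a smaller portion of the UMIs in library 2 (6265 against 7484 CPM). The sum of the Kupffer list was larger there (29791 against 19661 CPM), with 9998 against 233 CPM from Marco alone. Of the 12 Kupffer list genes only 1 was at least 2-fold higher, and their median log2 ratio was -0.23.

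Rgs5 and Sod3 were higher in library 2 by both measures as reported, but neither ratio was stable to the choice of droplets. Rgs5 had a log2 ratio of 1.30 (1.05 to 1.56) and a stellate-scaled ratio of 1.56 (1.31 to 1.82), with 0.48 in Kupffer-rule cells. It was detected in 77.5% of droplets in library 2 and 69.4% in library 1. Sod3 had 0.97 (0.74 to 1.22) and 1.23 (0.99 to 1.48), and was detected in 61.9% and 45.8% of droplets. In Kupffer-rule cells, where it stood at 10.5 and 3.73 CPM, its log2 ratio was 1.49. Among droplets with at most 10% mitochondrial UMIs the log2 ratio of Rgs5 was 0.67 and that of Sod3 was -0.08 (-0.44 to 0.30). Rgs5 also stayed under 2-fold after thinning to 1000 UMIs (0.52), with no endothelial ceiling (0.77), at a marker share of 0.5% (0.88) and by the mean of cell shares (0.92). With at most 2 Kupffer marker UMIs, in 5 and 25 droplets, the ratio of Sod3 was -0.18.

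Hgf, Ngfr, Vipr1 and Pdgfrb were lower in library 2. Hgf had a log2 ratio of -1.29 (-1.61 to -0.97), a stellate-scaled ratio of -1.03 (-1.35 to -0.72) and UMIs in 28.0% of droplets in library 2 against 62.5% in library 1. In Kupffer-rule cells its level was 7.22 and 28.0 CPM, a log2 ratio of -1.96. Ngfr, the p75 neurotrophin receptor, gave 7 and 20 UMIs (-3.12, -4.60 to -1.82). Vipr1 had -1.20 (stellate-scaled -0.95) and Pdgfrb -1.23 (stellate-scaled -0.98). Reln had -1.12 (-1.37 to -0.87) and a stellate-scaled ratio of -0.86 (-1.11 to -0.61), although it was 1 of the genes that chose the droplets. Dcn had a log2 ratio of -0.28 and Lrat 0.10, with stellate-scaled ratios of -0.02 (-0.11 to 0.07) and 0.36. After thinning the log2 ratios were -0.70 for Dcn and -0.59 (-1.25 to 0.09) for Lrat, and at a marker share of 0.5% that of Dcn was -0.71.

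Matrix and remodelling genes divided. Over all genes, 3.95% were at least 2-fold higher and 11.0% lower by CPM, and 6.91% and 5.56% stellate-scaled. Of 15 matrix genes, 0 were at least 2-fold higher, 2 (Lama1 and Nid1) lower and 13 within 2-fold, a share near the 11.0% lower over all genes. Stellate-scaled, 1 was higher and 0 lower. Of 7 remodelling genes, 2 (Timp3 and Plod2) were higher and 0 lower, with a median log2 ratio of 0.47. Timp3, an inhibitor of metalloproteinases that binds matrix (chr10:86300372-86349506, plus strand), had 302 CPM in library 2 and 80.6 CPM in library 1 (log2 1.90, 1.32 to 2.54; stellate-scaled 2.16). It is also an endothelial gene, with 609 and 691 CPM in endothelial-rule cells, and with no ceiling on endothelial UMIs its log2 ratio was -0.0021. Plod2, a collagen lysyl hydroxylase, had 87.7 and 21.7 CPM (2.01). Postn had a log2 ratio of 1.56 (1.05 to 2.11) and Serping1, the C1 inhibitor, 1.42 (0.89 to 2.00), with 265 CPM in library 2 and 99.3 CPM in library 1. Of 8 activation genes, 3 (Tpm1, Lgals1 and Postn) were higher and 1 (Thbs1) was lower, with a median of 0.28. For Thbs1, 96.6% of the UMIs in library 2 and 82.0% in library 1 came from the 12 and 3 droplets led by Ecm1. Tpm1, a tropomyosin, had 171 CPM in library 2 and 52.7 CPM in library 1. Of 6 retinoid genes, 0 were higher and 1 (Aldh1a1) was lower by CPM, while stellate-scaled 1 was higher and 0 lower. Of 8 complement and coagulation genes, 2 (Serping1 and Colec12) were higher and 1 (Pros1) was lower.

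Genes known to differ along the sinusoid were measured too, since mouse stellate cells near the portal tract and the central vein differ in expression. Of 4 portal genes, Rgs4 was higher in library 2 (1.65, 0.96 to 2.41), Ngfr and Igfbp3 were lower, and Itgb3 was within 2-fold at 0.65. The shares over all genes were 3.95% at least 2-fold higher and 11.0% lower. Igfbp3 had 107 CPM in library 2 and 344 CPM in library 1 (-1.68, -2.08 to -1.29) and UMIs in 19.9% and 50.0% of droplets. Of 2 central genes, Cxcl14 had 8.16 and 62.0 CPM (-2.93), and Rspo3 was within 2-fold at -0.68. Adamtsl2, also of the central side, gave 5 UMIs in library 2 and 15 in library 1. The portal genes thus did not move in 1 direction.

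Ligands, receptors and transcription factors had medians below that of all genes (-0.28) in library 2 by CPM. Among all genes 3.95% were at least 2-fold higher and 11.0% lower, or 6.91% and 5.56% stellate-scaled. Of 14 niche and growth factor genes, 1 was at least 2-fold higher (Vcam1) and 3 lower (Hgf, Jag1 and Angptl6), with a median of -0.67, and stellate-scaled 1 was higher and 2 lower. Jag1, a Notch ligand, gave 10 UMIs in library 2 and 22 in library 1 (-2.74, -3.98 to -1.60). Of 15 receptors, 0 were higher and 5 lower, with a median of -0.58, and stellate-scaled 1 was higher (Lifr, 1.23) and 1 lower (Ngfr). Of 8 transcription factors, 0 were higher and 2 (Tcf21 and Nr1h4) lower, with a median of -0.75, and stellate-scaled the counts were the same. Tcf21 had a log2 ratio of -2.72 (-3.84 to -1.68).

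The same genes were read in the droplets with at most 0.2% Kupffer marker UMIs, 32 in library 2 with 145793 UMIs and 29 in library 1 with 79759 UMIs, a subset added after the data had been seen. There Rgs5 had 2126 CPM in library 2 and 1279 CPM in library 1 (0.73, 0.41 to 1.07), Timp3 had a log2 ratio of 1.50 and Postn 1.31. Hgf had 439 and 1442 CPM (-1.72, -2.18 to -1.26), Igfbp3 -2.52, Vipr1 -2.19 and Reln -1.18. Marco had 1989 CPM in library 2 and 12.5 CPM in library 1, whereas Cd74 had 2298 and 2319 CPM (-0.01, against -3.10 over all droplets). These Cd74 levels rest on 335 and 185 UMIs, and over all droplets 29.0% of the Cd74 UMIs of library 2 came from 1 droplet. In the 5 and 25 droplets with at most 2 Kupffer marker UMIs, Cd74 had 0 and 184 UMIs. Dcn had 8258 and 13115 CPM (-0.67, -0.79 to -0.55). Of the UMIs of this subset, 26.4% in library 2 (5 droplets) and 5.78% in library 1 (1 droplet) came from droplets led by Ecm1, where stellate genes are scarce. Other droplets of the subset were also poor in stellate RNA. Among these, droplets of 8014 and 7878 UMIs in library 2 had 0.137% and 0.102% of UMIs from the stellate identity list. Droplets of 11125 and 6501 UMIs in library 1 had 0.027% and 0.092%. The CPM ratios of the subset thus compare mixtures and not stellate cells alone. Stellate-scaled, the ratios were 1.34 for Rgs5, 2.11 for Timp3, 1.92 for Postn, -1.11 for Hgf, -1.92 for Igfbp3, -1.58 for Vipr1, -0.57 for Reln and -0.06 for Dcn. In the 5 and 25 droplets with at most 2 Kupffer marker UMIs, Rgs5 had 7 and 72 UMIs and a log2 ratio of -0.22 (-1.59 to 0.89), which is too few to read.

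**Figure D4:**
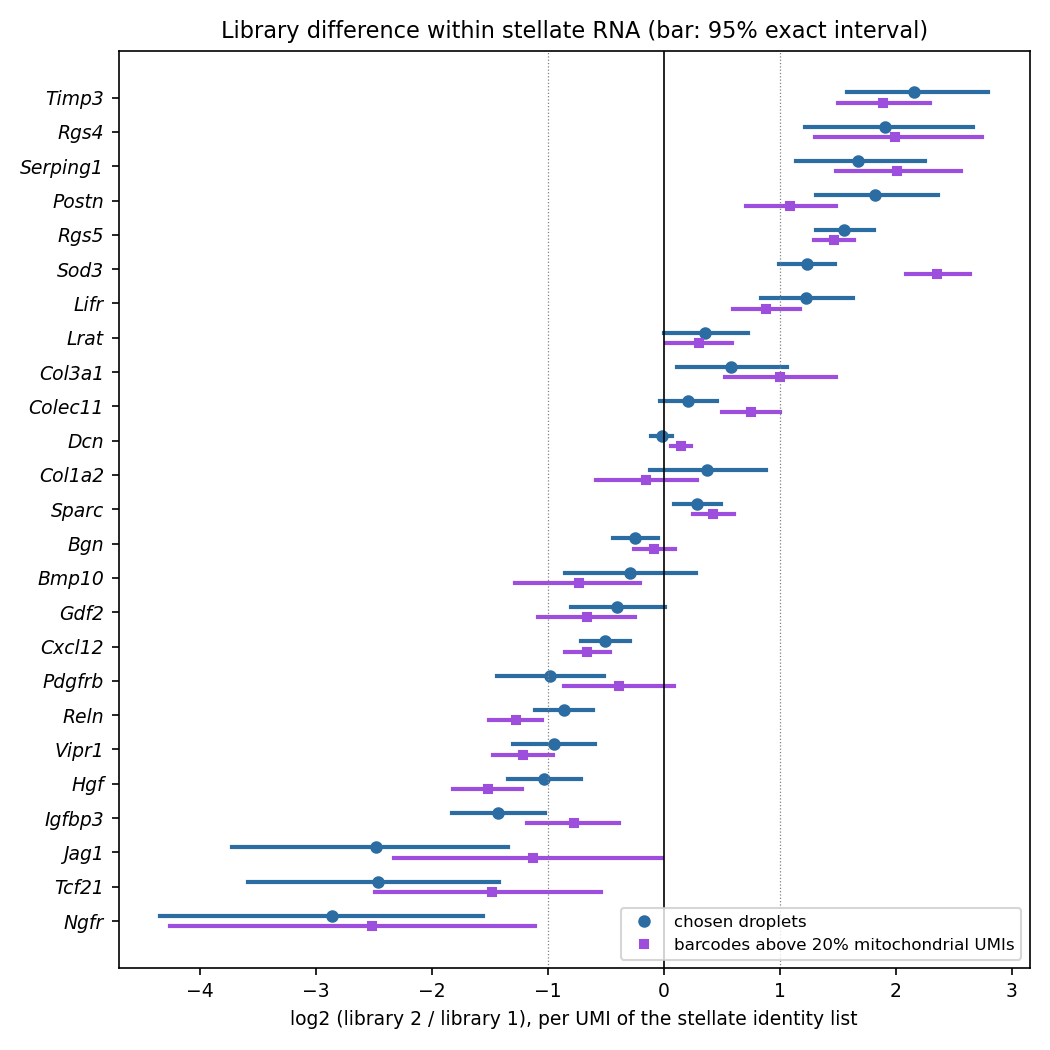
Stellate-scaled log2 ratio, library 2 over library 1, of 25 genes (point, with conditional exact 95% interval) in the stellate-gene droplets (blue circles) and, where computed, in separate barcodes of the same libraries that had over 20% mitochondrial UMIs and met the rest of the rule (purple squares); dotted lines mark 2-fold. Rgs5 at 1.56 and Timp3 at 2.16 lie on the right, Dcn at -0.02 in the middle, and Hgf at -1.03 and Ngfr at -2.86 on the left.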

How the data were processed

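The authors deposited 1 matrix of UMI counts (unit: counts, whole numbers, not normalized) for 26078 genes and 18633 barcodes of both libraries, made, per the file headers, by Cell Ranger 3.0.1. The submitters' processing notes add build GRCm38.p5 and R 3.6.1. For the annotation release and any equalising of depth, the sources used here give nothing. The members and lists were chosen with earlier results of these data known.

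Counts were summed over droplets and scaled to CPM in python 3.11.15 with pandas 2.3.3, scipy 1.17.1, numpy 2.4.6 and matplotlib 3.10.9. CPM have exact Poisson, shares exact Clopper-Pearson and ratios conditional exact 95% intervals, for counting error only. A count of 0 was set to 3 UMIs, and no ratio was given where that bound turned its direction. Comparisons of genes and lists with Kupffer-rule cells used 2981 genes with enough counts. List genes with 10 UMIs, the 25 genes highest over other kept cells (30 UMIs or more) and the 12 highest and 12 lowest library ratios could be named. Levels are UMIs of 3′ ends, so no length correction was applied. Of the list genes, 3 symbols were not in the matrix. Doublets were neither called nor removed. The ratio step was tested on simulated data. Gene positions are from GENCODE M21 by gene ID, promoters from RefSeq GRCm38.p6; Dcn and Col1a1 had none there. A few named-rule genes are not reported here.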

Additional observations from a re-analysis of the deposited data

Results flagged for a closer look

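Barcodes above the ceiling of 20% mitochondrial UMIs also met the rest of the rule and stand outside every comparison above. They numbered 283 of 2775 such barcodes (10.2%) in library 2 and 259 of 5311 (4.88%) in library 1, and were flagged because they carry the stellate signal in data left out by the filter. Their stellate identity list summed to 6064 CPM in library 2 and 8039 CPM in library 1, and their Kupffer list to 18973 and 9986 CPM. Marco made up 6574 and 161 CPM of the Kupffer sums. More than 2 Kupffer marker UMIs were found in 94.7% and 40.9% of these barcodes. Rgs5 had 1377 CPM in library 2 and 661 CPM in library 1 (stellate-scaled log2 ratio 1.47, 1.29 to 1.64), and Sod3 had 945 and 244 CPM. Timp3 had 347 and 124 CPM and Serping1 had 211 and 69.5 CPM. Hgf had 163 CPM in library 2 and 618 CPM in library 1 (stellate-scaled -1.52, -1.82 to -1.22), and Reln had 296 and 952 CPM. These droplets come from the same 2 mice and are no replicate of them.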

How the results depend on the processing

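No replicate could be left out, since each genotype has 1 library. No paired analysis was possible because there is 1 library per group. Over 37 genes and 20 settings, 544 of 714 log2 ratios stayed within the counting interval of the reported value, 166 moved outside it, and 4 that were past 2-fold as reported changed sign. Among the others, 19 ratios within 2-fold as reported also changed sign, 7 each of Lrat and Colec11, 3 of Col3a1 and 2 of Sod3. The 4 were Cd207 at a marker share of 0.5% (0.65), Timp3 with no endothelial ceiling (-0.0021), Rgs5 with at most 2 Kupffer marker UMIs (-0.22) and H2-Ab1 with at most 0.2% Kupffer marker UMIs (0.12). Over all stellate-gene droplets, 37.3% of the H2-Ab1 UMIs of library 2 came from 1 droplet. Where a library had 0 UMIs and the floor would turn the direction, no value was given. The cause of these changes was not tested.

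The share of kept cells that met the rule, in library 2 and library 1, was 1.85% and 1.87% under a mitochondrial limit of 10%, and 5.07% and 4.22% under one of 40%. It was 4.55% and 3.55% with a minimum of 2 marker UMIs, 2.20% and 2.10% with 8, and 1.58% and 1.31% at a marker share of 0.5%. It was 4.38% and 5.09% with no endothelial ceiling, 2.99% in library 2 with a ceiling of 0, 0.0725% and 0.935% with at most 2 Kupffer marker UMIs, and 0.464% and 1.08% with at most 0.2%. Droplets with over 2 Kupffer marker UMIs made up 80.0% (73.6 to 85.4%) in library 2 and 64.1% (51.1 to 75.7%) in library 1 after thinning, and in library 1 48.0% with at most 40% mitochondrial UMIs and 37.1% at a marker share of 0.5%.

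The count of genes at least 2-fold higher in library 2, 152 as reported, was 308 with at most 10% mitochondrial UMIs, 664 at a marker share of 0.5%, 232 without mitochondrial and globin genes, 231 relative to the median ratio, 238 by the mean of cell shares and 450 after thinning. It was 618 and 83 with minimums of 10 and 100 CPM, 266 per UMI of the stellate list and 417 with at most 0.2% Kupffer marker UMIs. The count lower, 424 as reported, was 91 with at most 2 Kupffer marker UMIs, 268 relative to the median ratio, 935 and 155 with minimums of 10 and 100 CPM, and 214 per UMI of the stellate list.

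The median log2 ratio of the stellate list, -0.70 as reported, stayed below 0 in each setting that moved it. It was -1.18 and -0.88 with at most 10% and 40% mitochondrial UMIs, -1.16 at a marker share of 0.5%, -0.58 with an endothelial ceiling of 0, -0.25 with at most 2 Kupffer marker UMIs and -1.04 with at most 0.2%. It was -0.61 without mitochondrial and globin genes, -0.52 relative to the median ratio, -1.08 by the mean of cell shares, -1.02 after thinning and -0.44 per UMI of the stellate list.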

Other observations

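Osteoprotegerin (Tnfrsf11b) and the ectonucleotidase gene Nt5e were abundant in the stellate-gene droplets without a place in the gene lists. Nt5e had 91.8 CPM in library 2 and 46.5 CPM in library 1, against 1.07 and 0.481 CPM in Kupffer-rule cells. The complement gene C4b had 458 CPM in library 2 and 543 CPM in library 1, against 199 and 375 CPM in Kupffer-rule cells. Ceruloplasmin (Cp), a ferroxidase, had 161 CPM in library 2 and 205 CPM in library 1, or 4.23 and 3.84 times its Kupffer-rule level. Fos, an immediate early gene, had 150 and 71.3 CPM (log2 1.07, and -1.12 in Kupffer-rule cells), while Egr1 had 104 and 192 CPM, 29.4% and 32.3% of its UMIs in 1 droplet of library 2 and of library 1.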
